A study of Mus musculus with 6 samples.

Results

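Vascular nuclei made up 196 of the 55230 nuclei kept from mouse retina, and 85 of them were mural and 111 endothelial. A nucleus counted as mural where at least 3 of the 8 genes Pdgfrb, Rgs5, Kcnj8, Abcc9, Notch3, Cspg4, Acta2 and Myh11 had at least 1 UMI, the unique molecular identifier that stands for 1 captured RNA molecule. It counted as endothelial where at least 3 of the 8 genes Cldn5, Pecam1, Cdh5, Tek, Ptprb, Egfl7, Erg and Ly6c1 did. Only nuclei with 300 or more detected genes and no more than 5% mitochondrial UMIs entered these gates, and 0 nuclei passed both. The members were thus chosen by the counts of these 16 genes, whose levels are given as a description. No test of any of them is read, although fits over all genes include them. The libraries held nuclear RNA of retina from wild-type C57BL6/J mice, 3 libraries of 18-month-old animals and 3 of 3-month-old animals, and the labels name no transgene, treatment or enrichment of vessels in either group. The study's title concerns loss of vision with age, so the comparison the files allow is of old with young retina. Mural nuclei numbered 18, 34 and 16 in the 18-month libraries (replicates 1 to 3), against 4, 5 and 8 in the 3-month libraries. Endothelial nuclei numbered 9, 58 and 7 in the 18-month libraries, against 11, 9 and 17 in the 3-month libraries. Of the 111 endothelial nuclei, 58 thus came from a single library, 18-month replicate 2.

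Endothelial cells line the retinal capillaries and form the inner blood-retina barrier, with tight junctions, efflux pumps and carriers for glucose, amino acids and fatty acids in place of free diffusion. Norrin and Wnt signals through Fzd4, Lrp5 and Tspan12 are known to build and keep that barrier in the retina. Mural cells wrap the same vessels, as pericytes on capillaries and as smooth muscle cells on arterioles. They are recruited by platelet-derived growth factor from the endothelium, which acts on the receptor Pdgfrb, and they set vessel diameter through calcium, cyclic nucleotides and ATP-sensitive potassium (K-ATP) channels. Loss of pericytes and leakage of the barrier are known features of diabetic and ageing retinal vessels.

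Promoter sequences are shown for 4 genes that carry the identity of the subgroups. Kcnj8 and Abcc9 encode the pore and the regulatory subunit of the vascular K-ATP channel and are neighbours on chromosome 6, 16248 bases apart in GENCODE M21. Slco1a4 is an organic anion carrier of the barrier, and Adgrl4 is an adhesion G protein-coupled receptor of endothelium and the 1 gene that DESeq2 called for age in endothelial nuclei. Each sequence runs 5′ to 3′ on the gene's own strand from 250 bases before to 50 bases after the start in RefSeq on GRCm38.p6. The windows are chr6:142571565-142571864 (minus strand) for Kcnj8, chr6:142702225-142702524 (minus strand) for Abcc9, chr6:141856171-141856470 (minus strand) for Slco1a4 and chr3:151437632-151437931 (plus strand) for Adgrl4. Capitals mark AGGAAG, a form of the site bound by ETS factors such as Erg and Fli1, or its reverse complement CTTCCT.
Kcnj8: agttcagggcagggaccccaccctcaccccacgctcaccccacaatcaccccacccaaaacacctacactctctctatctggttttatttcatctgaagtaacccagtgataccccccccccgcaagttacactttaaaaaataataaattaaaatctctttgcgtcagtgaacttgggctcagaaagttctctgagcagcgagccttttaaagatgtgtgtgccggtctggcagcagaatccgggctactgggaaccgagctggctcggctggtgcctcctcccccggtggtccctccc
Abcc9: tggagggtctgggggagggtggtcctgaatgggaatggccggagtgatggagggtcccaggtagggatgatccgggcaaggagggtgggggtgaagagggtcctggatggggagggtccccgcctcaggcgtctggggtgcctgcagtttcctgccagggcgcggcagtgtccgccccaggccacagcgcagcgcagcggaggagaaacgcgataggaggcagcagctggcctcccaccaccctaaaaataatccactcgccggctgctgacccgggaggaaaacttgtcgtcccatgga
Slco1a4: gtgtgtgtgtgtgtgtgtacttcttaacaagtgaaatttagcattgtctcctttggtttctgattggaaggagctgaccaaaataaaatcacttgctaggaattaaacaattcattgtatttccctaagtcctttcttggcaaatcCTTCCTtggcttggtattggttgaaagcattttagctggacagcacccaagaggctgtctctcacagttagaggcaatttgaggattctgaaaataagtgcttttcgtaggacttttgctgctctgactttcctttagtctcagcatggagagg
Adgrl4: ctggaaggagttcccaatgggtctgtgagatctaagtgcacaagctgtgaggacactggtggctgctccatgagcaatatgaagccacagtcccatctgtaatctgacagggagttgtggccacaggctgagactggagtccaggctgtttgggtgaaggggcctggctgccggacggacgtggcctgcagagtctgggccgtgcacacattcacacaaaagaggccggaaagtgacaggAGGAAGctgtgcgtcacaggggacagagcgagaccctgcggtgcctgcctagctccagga
The search was for AGGAAG on both strands with no other motif, and the 2 endothelial genes shown held 1 match each and the 2 mural genes 0. Over larger sets the shares were close to each other. A match lay in 35.7% of 28 promoters of the endothelial gate and leading genes, in 38.9% of 18 promoters of the mural ones and in 35.4% of all 32851 RefSeq promoters of this length. Of 23 genes in each set, 17 had a promoter in the table. A match in such a window is a string of letters and not a shown binding site.

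Depth was low and differed among libraries. The 18-month libraries held 21453735, 29340705 and 21803522 UMIs, against 19449782, 15905689 and 20364509 UMIs in the 3-month libraries. The median UMI count of a kept nucleus ranged from 1035 to 2421 in the 18-month libraries and from 1361 to 1874 in the 3-month libraries. The mitochondrial limit removed 1.12% to 9.16% of barcodes from the 18-month libraries and 9.36% to 41.9% from the 3-month libraries. Pairs of libraries shared at most 74 barcode sequences, 0.506% of the smaller library. The labels do not say whether each library was a separate animal, so the p-values below measure only the spread between these libraries, which may be technical.

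Checked against markers, 132 of the 196 nuclei had fewer than 3 markers of each of 12 other classes, and the name vascular was not clear-cut for the other 64. The name was not certain for all 132 either, since levels of identity genes outside the gates, given below, were low in some of them. The classes counted in each member were cone, bipolar, amacrine, ganglion, horizontal, Müller glia, astrocyte, microglia, pigment epithelium, fibroblast, melanocyte and red cell. Nuclei with fewer than 3 markers of every such class are called single-class here, and those with 3 or more markers of some other class are called mixed. Rod markers were left out of this sorting, because at least 3 of them were found in 57 of 68 single-class mural nuclei, in 56 of 64 single-class endothelial nuclei and in 49438 of the 55034 nuclei that passed neither gate. Single-class mural nuclei had a median of 1034 UMIs (511 to 4520) and single-class endothelial nuclei a median of 978.5 UMIs (523 to 2759). The 17 mixed mural nuclei had a median of 2629 UMIs and reached 90315 UMIs. The 47 mixed endothelial nuclei had a median of 13059 UMIs and reached 103177 UMIs. The mixed nuclei were thus few but deep, and held 1354210 UMIs against 155400 UMIs in the single-class nuclei. The sorting itself depends on depth, since a nucleus with more UMIs can show more markers of any class.

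Median levels of identity genes outside the gates were higher in single-class than in mixed nuclei, although single nuclei of both kinds overlapped. A list of 24 mural genes that the gate did not use had a median of 118 UMIs per 10000 UMIs of the nucleus in single-class mural nuclei and 44.2 in mixed mural nuclei. A list of 28 endothelial genes outside the gate had a median of 148 UMIs per 10000 in single-class endothelial nuclei and 6.37 in mixed endothelial nuclei. Single nuclei ranged from 12.1 to 320 per 10000 (single-class) and from 7.49 to 183 (mixed) in the mural subgroup. In the endothelial subgroup they ranged from 10.2 to 322 and from 0 to 195. The mural medians had the opposite order in 18-month replicate 3 (46.3 single-class, 55.2 mixed) and 3-month replicate 2 (23.8 and 34.1). In all other nuclei pooled, the lists stood at 15.2 per 10000 (mural) and 3.72 per 10000 (endothelial). Most mixed endothelial nuclei therefore carried their 3 gate markers in a large library with little other endothelial RNA. Of these 47 nuclei, 35 had at least 3 cone markers, 32 Müller glia, 31 bipolar, 30 amacrine, 24 ganglion, 23 horizontal and 11 microglia markers, and 37 passed for at least 2 other classes, up to 9. The 17 mixed mural nuclei most often held Müller glia markers (9) and cone markers (7). In 0 mixed nuclei were 3 markers of astrocytes, fibroblasts or melanocytes found. The levels that follow are therefore given for single-class nuclei, with mixed nuclei beside them where a result includes both.

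**Figure D1:**
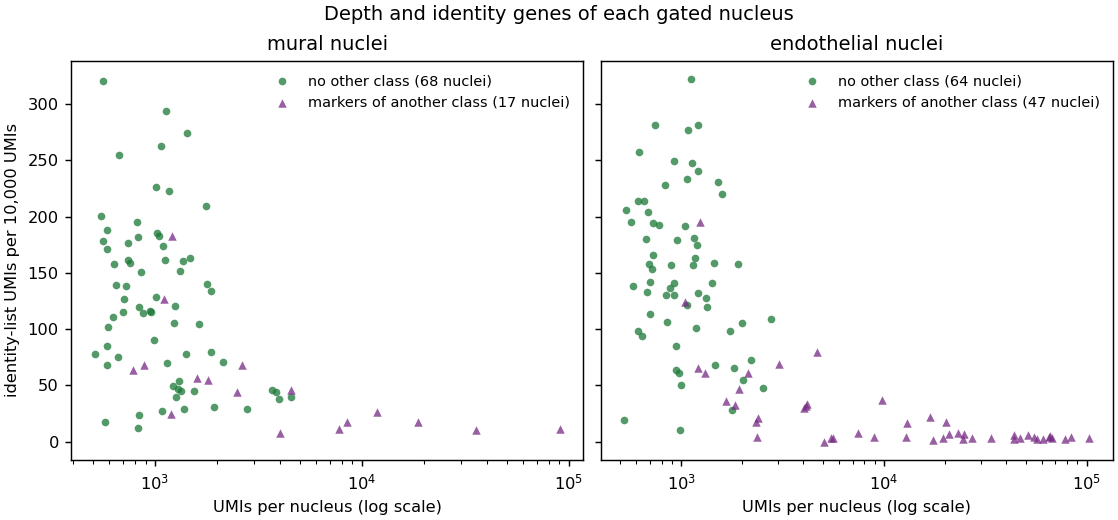
Each point is 1 gated nucleus, with its UMI count on a log axis and its UMIs in the subgroup's identity list (24 mural or 28 endothelial genes, no gate gene among them) per 10000 UMIs. Single-class nuclei (green circles, 68 mural and 64 endothelial) lie at low depth, most with high identity levels. The deepest of the mixed nuclei (purple triangles, 17 and 47) lie near the baseline, and the levels of both kinds overlap.

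Single-class mural nuclei carried receptors and channels known from pericytes, here the 8 genes of the gate that chose them. Pdgfrb, the receptor for platelet-derived growth factor B, had at least 1 UMI in 57 of 68 single-class mural nuclei, at a pooled level of 11.7 UMIs per 10000, against 1 of 64 single-class endothelial nuclei (0.141 per 10000), at median depths of 1034 and 978.5 UMIs. Abcc9 was found in 48 mural nuclei (12.9 per 10000) and 1 endothelial nucleus (0.141 per 10000), and its partner Kcnj8 in 19 mural nuclei (3.55 per 10000) and 0 endothelial nuclei. These are the subunits of the K-ATP channel whose promoters are printed above. Both belong to the mural gate, so their counts in the mural subgroup follow in part from the rule. Rgs5, a regulator of G protein signalling typical of pericytes, was found in 42 mural nuclei (10.2 per 10000) and 4 endothelial nuclei (0.988 per 10000). Notch3, the Notch receptor of mural cells, was found in 43 mural nuclei (7.57 per 10000) and 0 endothelial nuclei. Cspg4, the NG2 proteoglycan, had a UMI in 18 mural nuclei. Markers of contractile smooth muscle were sparser among the gate genes. Myh11, smooth muscle myosin, had a UMI in 10 of 68 nuclei (1.66 per 10000), and Acta2, smooth muscle actin, in 4 of 68 (0.71 per 10000).

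Beyond the gate, the mural nuclei held the machinery of tone and of calcium and cyclic nucleotide signalling. Dlc1, a GTPase-activating protein that acts on the actin cytoskeleton, stood at 32.2 per 10000 in single-class mural nuclei, against 1.55 in single-class endothelial nuclei and 1.12 in all other nuclei. Prkg1, the cGMP-dependent kinase that relaxes vascular muscle, stood at 30.4, 7.76 and 9.12 per 10000 in the same order. The receptor side of that pathway was also seen, with Gucy1a1 and Gucy1b1, the subunits of the nitric oxide receptor guanylate cyclase, at 2.60 and 3.55 per 10000 in mural nuclei. Pde3a, which breaks down cyclic AMP, stood at 6.74 per 10000 in mural nuclei, against 0.141 in endothelial nuclei and 2.53 in all other nuclei. Cacna1c, the L-type calcium channel, stood at 7.69, 0.564 and 2.04 per 10000, and Ano1, a calcium-activated chloride channel, at 4.38, 0.141 and 0.0612. These channels set the membrane potential and calcium entry of contractile cells. Ednra, the endothelin receptor that constricts vessels, had 24 UMIs in 16 mural nuclei and 0 UMIs in endothelial nuclei. Of the 30 genes of vasoactive signalling, 24 had at least 1 UMI in single-class mural nuclei and 15 in single-class endothelial nuclei.

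Matrix genes were readily detected in mural nuclei, whereas several contractile genes of smooth muscle were at or near 0. Cald1, the actin-binding caldesmon, stood at 12.1 per 10000 in single-class mural nuclei, against 1.27 in endothelial nuclei. Tagln, another actin-binding protein of smooth muscle, had 3 UMIs in all single-class mural nuclei together, and Cnn1, Actg2, Pln and Mustn1 had 0. A count of 0 in 68 nuclei allows a share of up to 4.41% of nuclei with a UMI, from counting error alone. Vtn, the matrix protein vitronectin, stood at 16.0 per 10000 in mural nuclei, against 3.95 in endothelial nuclei and 2.70 in all other nuclei. Lama2, a laminin chain of the basement membrane, stood at 5.56, 0.706 and 0.0835 per 10000. Itga1, a collagen-binding integrin, stood at 6.15, 3.10 and 0.0410, and Mgp, the matrix Gla protein that limits calcification, at 9.23, 5.36 and 0.0301. Genes known from brain pericytes in mice were present as well, with Atp13a5 in 16 mural nuclei (3.79 per 10000) and Slc38a11 in 22 (3.90 per 10000). Lamc1, Col4a1, Col4a2 and Nid1, other components of the vascular basement membrane, had 22, 14, 14 and 11 UMIs in mural nuclei, against 2, 9, 5 and 1 in endothelial nuclei. Fn1, fibronectin, lay on the other side, with 40 UMIs in endothelial nuclei and 0 in mural nuclei. Genes of fibroblasts were close to 0, at 0.591 UMIs per 10000 in mural nuclei for that whole marker list.

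Single-class endothelial nuclei carried the receptors and junctions of endothelium. Ptprb, the endothelial phosphatase that restrains Tek, had a UMI in 51 of 64 nuclei (12.8 per 10000), against 1 of 68 single-class mural nuclei (0.118 per 10000). Egfl7 was found in 40 endothelial nuclei (8.04 per 10000) and 0 mural nuclei, and Cldn5, the main claudin of the barrier, in 38 (9.17 per 10000) and 1. Tek, the angiopoietin receptor, was found in 29 endothelial nuclei (5.22 per 10000), Pecam1 in 26 (5.36 per 10000), Ly6c1 in 27 (8.33 per 10000), Erg in 19 (3.67 per 10000) and Cdh5, the endothelial cadherin, in 12 (2.26 per 10000). All of these 8 genes belong to the gate. Outside it, Flt1, a receptor of vascular endothelial growth factor (VEGF), stood at 30.8 per 10000 in endothelial nuclei, against 0.946 in mural nuclei and 0.588 in all other nuclei. Kdr, the main signalling receptor for VEGF, had 4 UMIs in endothelial nuclei and 3 in mural nuclei. Adgrl4 had 100 UMIs in 40 endothelial nuclei (14.1 per 10000) and 0 UMIs in mural nuclei. The transcription factors Mecom and Fli1 stood at 20.5 and 6.63 per 10000 in endothelial nuclei, against 0.473 and 0.355 in mural nuclei, and Klf2, a factor of cells under flow, at 6.07 against 0.

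Barrier carriers and pumps stood high in the endothelial subgroup. The list of 31 barrier genes summed to 152 UMIs per 10000 in single-class endothelial nuclei, against 27.0 in single-class mural nuclei and 23.5 in all other nuclei, and all 31 genes had at least 1 UMI in the endothelial nuclei. Slco1a4 was found in 51 of 64 endothelial nuclei (20.2 per 10000) and 1 of 68 mural nuclei (0.118 per 10000). Slco1c1, a thyroid hormone carrier, stood at 5.64 per 10000 in endothelial nuclei with 0 UMIs in mural nuclei. Slc2a1, the glucose carrier of the barrier, stood at 7.34 per 10000 in endothelial nuclei and 0.591 in mural nuclei. The efflux pumps Abcb1a, Abcg2 and Abcc4 stood at 6.63, 6.21 and 4.80 per 10000 in endothelial nuclei and at 0.591, 0.473 and 0.118 in mural nuclei. Bsg, the basigin that accompanies lactate carriers, stood at 25.7 per 10000 in endothelial nuclei, 4.85 in mural nuclei and 2.99 in all other nuclei. Mfsd2a, the carrier of docosahexaenoic acid across the barrier, was near the detection limit, with 4 UMIs in 4 of 64 endothelial nuclei and 0 in mural nuclei. Plvap, a marker of leaky and fenestrated vessels, had 1 UMI in endothelial nuclei and 1 in mural nuclei.

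Lipid genes were examined because the study's title concerns polyunsaturated fatty acids. The 24 lipid genes summed to 25.0 UMIs per 10000 in single-class endothelial nuclei, 16.7 in single-class mural nuclei and 17.0 in all other nuclei. Most of that RNA came from genes that other retinal nuclei express as well, such as Agpat3, an acyltransferase of phospholipid synthesis, at 4.37, 3.67 and 3.89 per 10000, and Apoe, the apolipoprotein of retinal glia, at 4.94, 2.25 and 3.32. Pltp, the phospholipid transfer protein, differed from that pattern, with 37 UMIs in 25 endothelial nuclei (5.22 per 10000), against 0.355 per 10000 in mural nuclei and 0.0386 in all other nuclei. Elovl5, an elongase of polyunsaturated fatty acids, had 10 UMIs in endothelial nuclei and 2 in mural nuclei. Elovl4, which makes very long chain fatty acids in photoreceptors, stood at 2.68 per 10000 in endothelial nuclei and 1.86 in all other nuclei. By library, the lipid list stood at 31.9, 23 and 27.9 per 10000 in endothelial nuclei of the 18-month libraries, against 31.7, 31.7 and 21.6 in those of the 3-month libraries, with full overlap.

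Of the Wnt pathway, Lef1 and Sox17 were readily detected, whereas Fzd4, Lrp5 and Tspan12 were near the detection limit in single-class endothelial nuclei. Lef1, a transcription factor that acts with beta-catenin, stood at 8.61 per 10000 in single-class endothelial nuclei, against 0.237 in mural nuclei and 0.0200 in all other nuclei. Sox17, a target of the pathway in vessels, had 20 UMIs in 14 endothelial nuclei and 0 in mural nuclei. Among the Wnt genes examined, Lrp6, Ctnnb1, Lef1 and Reck had the most UMIs over all endothelial nuclei, mixed ones included, at 121, 119, 76 and 57. Levels of Lrp6 and Reck in single-class nuclei are not given here. The receptors Fzd4 and Lrp5 had 2 and 4 UMIs in single-class endothelial nuclei, and the co-receptor Tspan12 had 4. Ndp, the ligand norrin, had 1. Id1 and Id3, targets of bone morphogenetic protein signalling, stood at 3.53 and 3.95 per 10000 in endothelial nuclei and at 0.118 each in mural nuclei. Receptors of the same family were seen, with 31 UMIs of Bmpr2, 16 of Eng and 9 of Acvrl1 in endothelial nuclei, against 11, 4 and 0 in mural nuclei. Markers of vessel type were rare. Vwf and Vcam1 had 12 and 15 UMIs in endothelial nuclei, the arterial genes Gkn3 and Bmx had 12 and 13, and the venous carrier Slc38a5 had 4. The adhesion molecules Sele and Selp and the chemokine Ccl2 had 0 UMIs in single-class nuclei of both subgroups, as did Esm1, Apln and Aplnr, genes of sprouting vessels. H2-K1 and H2-D1, class I antigen-presenting molecules, stood at 3.53 and 2.68 per 10000 in endothelial nuclei, against 0.946 and 0.591 in mural nuclei.

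In several pathways the ligand and its receptor were counted mainly in opposite subgroups. Pdgfb had 9 UMIs in endothelial nuclei and 0 in mural nuclei, whereas its receptor Pdgfrb, a mural gate gene, had 1 and 99. Edn1, the endothelin ligand, had 7 UMIs in endothelial nuclei and 1 in mural nuclei, whereas Ednra had 0 and 24. Nos3, the endothelial nitric oxide synthase, had 11 UMIs in endothelial nuclei and 0 in mural nuclei, whereas Gucy1b1 had 5 and 30. For Notch the picture was less clear, with 8 UMIs of the ligand Jag1 in endothelial nuclei and 11 in mural nuclei. Angpt1, the mural ligand of Tek, had 7 UMIs in mural nuclei and 0 in endothelial nuclei. All of these ligand counts are small, and each difference describes these pooled nuclei with no test.

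Genes outside the gates were also ranked by the ratio of their levels in the single-class nuclei of the 2 subgroups. Among the 15 leading mural genes were Pde3a, Arhgap42, Adap2, Plcl1, Ano1, Atp13a5, Gucy1a2, Tbx3os1, Dock10, Aspn, Grm3, Dlc1 and Dgkb. Plcl1 had 113 UMIs in mural nuclei and 0 in endothelial nuclei, and Adap2 had 38 and 1. The 15 leading endothelial genes were Slco1a4, St6galnac3, Dock4, Ly6e, Mecom, Abcc4, Adgrl4, Lef1, Id3, Flt1, Id1, Rundc3b, Entpd1, Kank3 and Eogt. St6galnac3, a sialyltransferase, had 89 UMIs in endothelial nuclei and 1 in mural nuclei, and Entpd1, which breaks down extracellular ATP, had 24 and 1. When all 85 and 111 nuclei were ranked, with at least 50 UMIs required, the endothelial list also took in Hbb-bs, the adult beta globin of red cells, and the neuronal gene Nkain2. Both stood lower in the 111 endothelial nuclei, at 0.520 and 0.707 per 10000, than in all other nuclei, at 1.06 and 1.59. Mixed nuclei held 52 of the 64 Hbb-bs UMIs and all 87 Nkain2 UMIs in that set.

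**Figure D2:**
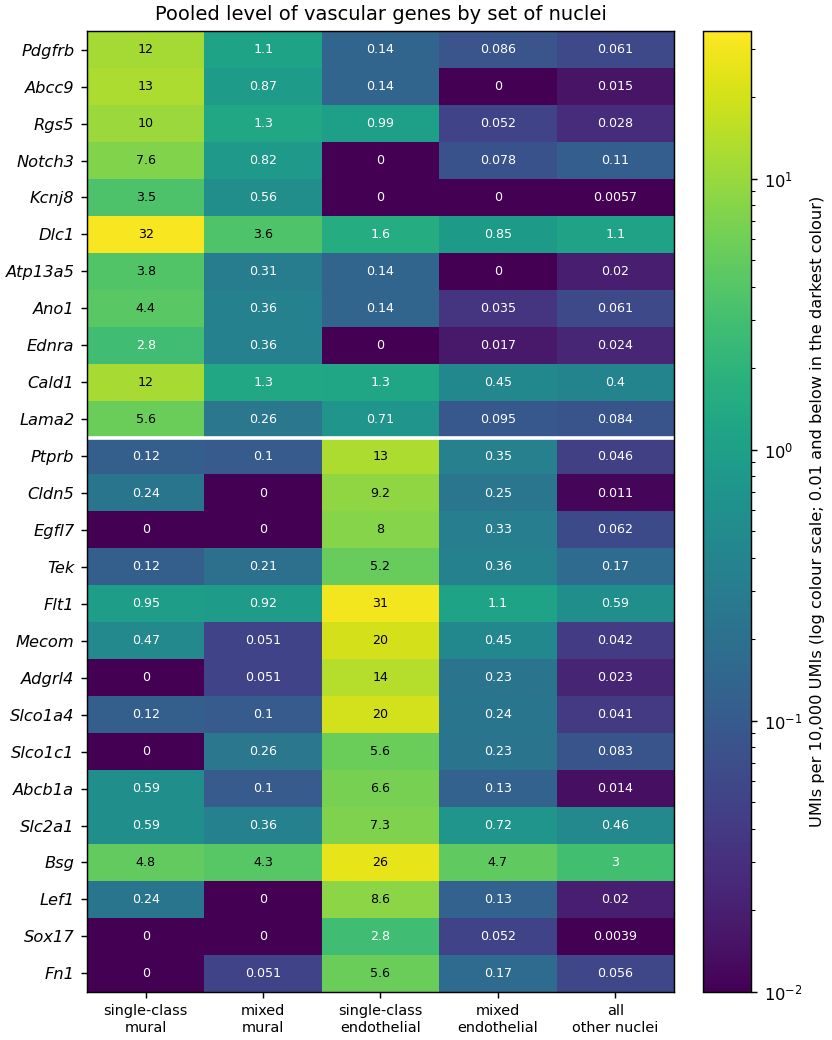
Pooled UMIs per 10000 UMIs (log colour scale, values printed in the cells) of 11 mural and 15 endothelial genes in 5 sets of nuclei. Pdgfrb, Abcc9, Rgs5, Notch3, Kcnj8, Ptprb, Cldn5, Egfl7 and Tek are gate genes, which chose the nuclei. Each gene stands highest in the single-class nuclei of its own subgroup, and the mixed nuclei of that subgroup lie between these and all other nuclei, as for Flt1 at 1.15 in mixed endothelial nuclei, 30.8 in single-class endothelial nuclei and 0.588 in all other nuclei.

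The gate's threshold left many nuclei just outside it. With exactly 3 markers there were 52 mural and 60 endothelial members, and with exactly 2 markers 134 and 272 nuclei. Of the 131 nuclei with 2 mural markers that were in neither gate, 33.6% had at least 3 Müller glia markers and 29.0% had at least 3 amacrine markers. Members with 3, 4 and 5 mural markers had medians of 73.9, 142 and 161 identity-list UMIs per 10000. Members with 3, 4 and at least 5 endothelial markers had medians of 48.9, 83.7 and 119 per 10000. More gate markers thus went with more identity RNA in both subgroups, at median depths of 1173, 1087 and 1167 UMIs in mural members and 2284, 1114 and 1340 UMIs in endothelial members.

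No difference between the ages in the share of either subgroup exceeded the spread between libraries. A lower share of a cell type and less RNA per nucleus cannot be told apart here, since a nucleus needs enough UMIs to show 3 markers. Mural nuclei were 0.306%, 0.210% and 0.111% of kept nuclei in the 18-month libraries, against 0.0762%, 0.0765% and 0.116% in the 3-month libraries. The means were 0.209% ± 0.0975 at 18 months and 0.0895% ± 0.0226 at 3 months (SD, n = 3 each), and the groups overlapped (two-sided exact permutation test, p = 0.2, adjusted p = 0.3 over 3 comparisons). Endothelial nuclei were 0.153%, 0.359% and 0.0484% in the 18-month libraries, against 0.210%, 0.138% and 0.246% in the 3-month libraries. Their means were 0.187% ± 0.158 at 18 months and 0.198% ± 0.0549 at 3 months (SD, n = 3 each; exact permutation p = 1, adjusted p = 1). The 18-month libraries spread over the whole range for endothelial nuclei, and the 3-month libraries lay inside it. The exact binomial 95% interval of a single library was wide, for example 0.0195% to 0.0997% for endothelial nuclei of 18-month replicate 3.

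The ratio of mural to endothelial nuclei was the one composition measure whose groups did not overlap. There were 2.0, 0.586 and 2.29 mural nuclei per endothelial nucleus in the 18-month libraries, against 0.364, 0.556 and 0.471 in the 3-month libraries. The means were 1.62 ± 0.91 at 18 months and 0.463 ± 0.0962 at 3 months (SD, n = 3 each). With 3 libraries per age an exact permutation test cannot go below 0.1, which is the p it gave (adjusted p = 0.3). Both releases of the counting software held libraries of both ages. Within release 7.1.0, with 1 library per age, the ratio was 1.64 larger at 18 months, and within release 7.2.0, with 2 per age, it was 0.923 larger. The separation was narrow, at 0.586 in 18-month replicate 2 against 0.556 in 3-month replicate 2, and the groups overlapped once members with markers of another class were left out (difference 2.76, exact permutation p = 0.3). With at least 2 gate markers the difference in the ratio was 0.183 (exact permutation p = 0.6).

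**Figure D3:**
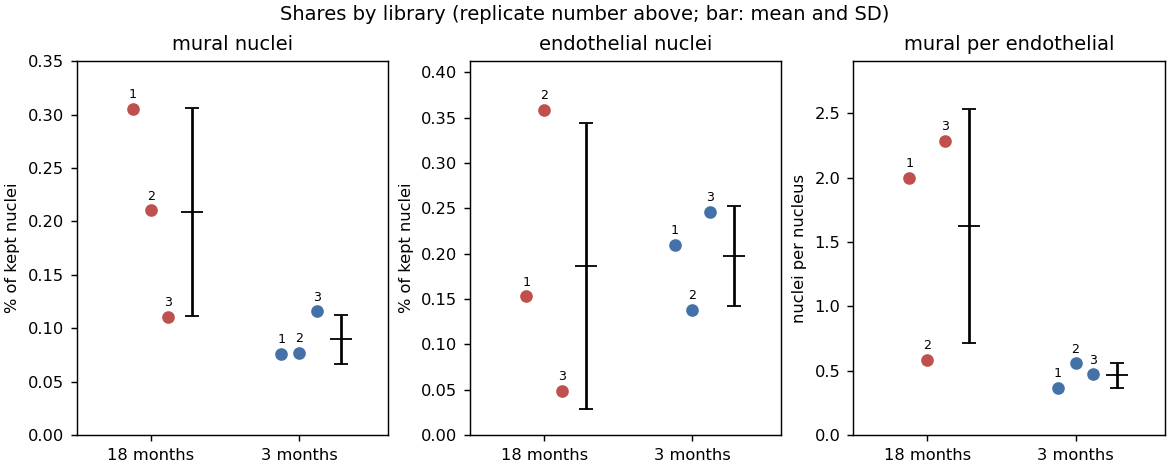
Mural nuclei as a percent of kept nuclei, endothelial nuclei as a percent of kept nuclei, and mural nuclei per endothelial nucleus, with 1 point per library (18 months left, 3 months right, replicate number above) and bars for mean and SD. The ages overlap in both shares, and in the ratio the lowest 18-month library (0.586) lies just above the highest 3-month library (0.556).

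The share of the members' summed counts that came from mixed nuclei did not overlap between the ages. Mixed nuclei held 92.1%, 75.2% and 55.6% of the members' UMIs in the 18-month libraries, against 96.0%, 94.2% and 96.8% in the 3-month libraries. The means were 74.3% ± 18.2 at 18 months and 95.7% ± 1.37 at 3 months (SD, n = 3 each; exact permutation p = 0.1, the smallest possible). The share of members that were mixed did overlap, at 44.4%, 26.1% and 26.1% in the 18-month libraries and 60.0%, 28.6% and 36% in the 3-month libraries (exact permutation p = 0.5).

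Within single-class nuclei, the levels of the defining genes overlapped between the ages. Pdgfrb stood at 17.2, 12.8 and 5.36 UMIs per 10000 in the mural nuclei of the 18-month libraries, against 5.03, 13.4 and 19.5 in those of the 3-month libraries. Abcc9 stood at 26.5, 12.8 and 4.38 in the 18-month libraries, against 3.36, 26.8 and 15.3 in the 3-month libraries. Rgs5 stood at 17.9, 8.84 and 5.36 in the 18-month libraries, against 11.7, 6.70 and 16.7 in the 3-month libraries. For all 3 genes the libraries of 1 age differed among themselves more than the ages did, with as few as 3 single-class mural nuclei in a library. Prkg1, a gene outside the gate, stood at 45.2, 28 and 29.7 in the 18-month libraries, against 20.1, 6.70 and 36.2 in the 3-month libraries, again with overlap. The summed mural identity list stood at 173, 119 and 49.2 per 10000 in the 18-month libraries, against 70.5, 77.0 and 129 in the 3-month libraries. The lowest library of each age was also the one with the most RNA from a list of 15 genes noted as up in other retinal classes. Csmd1, Dscam and Fgf14 were among them. The list was chosen with earlier results of these data known and is not a set of markers of those classes. That list stood at 89.2 per 10000 in 18-month replicate 3 and 191 in 3-month replicate 1, and between 3.35 and 26.0 in the other 4 libraries, and its part in the mural levels was not tested.

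The leading endothelial genes overlapped between the ages as well, apart from Adgrl4. Flt1 stood at 68.4, 32.7 and 16.4 UMIs per 10000 in the single-class endothelial nuclei of the 18-month libraries, against 52.9, 24.4 and 19.4 in those of the 3-month libraries. Mecom stood at 31.9, 19.4 and 19.7 in the 18-month libraries, against 31.7, 19.5 and 19.4 in the 3-month libraries. Slco1a4 stood at 13.7, 17.4 and 16.4 in the 18-month libraries, against 34.4, 14.6 and 35.7 in the 3-month libraries. The ages overlapped for each of these 3 genes. The summed barrier list stood at 155, 152 and 113 per 10000 in the 18-month libraries, against 164, 167 and 163 in the 3-month libraries, and did not overlap. The 18-month values came from 2, 39 and 4 nuclei. Of the 16 lists, 4 did not overlap in endothelial nuclei (barrier, platelet-derived growth factor and angiopoietin, and photoreceptor genes lower, vasoactive genes higher at 18 months), and 0 of 16 in mural nuclei. Of 287 single genes in the same endothelial nuclei, 5.92% had all 3 values at 18 months above those at 3 months and 5.57% below. With so few lists and nuclei, the count of lists is a description and not read as an effect of age. Adgrl4 stood at 36.5, 16.7 and 19.7 in the 18-month libraries (8, 69 and 12 UMIs), against 2.64, 2.44 and 8.64 in the 3-month libraries (1, 2 and 8 UMIs). Pooled, that was 17.9 per 10000 (exact Poisson 95% interval 14.4 to 22.1, counting error only) at 18 months and 5.18 (2.58 to 9.26) at 3 months.

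Levels that did not overlap between the ages were few. Of 287 genes with at least 30 UMIs in single-class endothelial nuclei, 17 (5.92%) had all 3 values at 18 months above those at 3 months, among them Adgrl4, Ebf1, Heg1 and Sgms1. A further 16 (5.57%) had all 3 values below, among them Slco1c1, Utrn and several ribosomal protein and photoreceptor genes. Of 371 genes in single-class mural nuclei, 22 (5.93%) lay above and 4 (1.08%) below, and Pdgfrb, Abcc9, Rgs5 and Notch3 were in neither set. These shares are descriptions of all genes with enough UMIs, with no test.

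**Figure D4:**
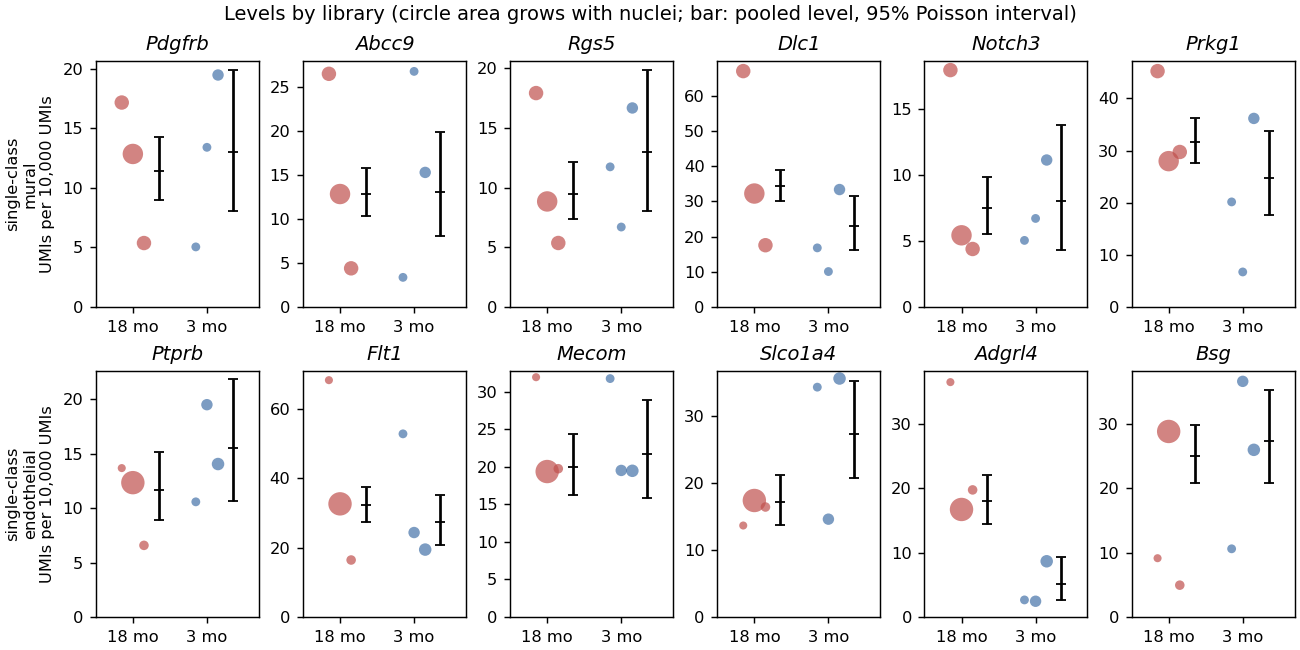
UMIs per 10000 of 6 genes in single-class mural nuclei (top) and 6 genes in single-class endothelial nuclei (bottom), with 1 circle per library (18 months left, 3 months right, area growing with the number of nuclei) and bars for the pooled level with its 95% Poisson interval. All genes shown overlap between the ages except Adgrl4, whose 18-month libraries lie at 16.7 to 36.5 and 3-month libraries at 2.44 to 8.64.

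Summed over all members of a library, no gene passed the edgeR test of age without added terms, and the count of calls depended on the model. Counts were summed per library and tested with the quasi-likelihood test of edgeR, with Benjamini-Hochberg adjustment over all genes tested and calls at an adjusted p of at most 0.05. In endothelial nuclei 0 of 4500 genes were called (0% called, with 65 at an unadjusted p under 0.05), whereas DESeq2 made 1 call (0.0222% called). An edgeR fit with the software release as a term and one with the replicate number as a block also made 1 call each (0.0222% called), and release 7.2.0 alone, with 2 libraries per age, gave 140 (3.36% called). In mural nuclei 0 of 635 genes were called (0% called, with 8 at an unadjusted p under 0.05), and 0 by DESeq2. That mural fit left out 3-month replicate 1, which had 4 mural nuclei. Dropping 3-month replicate 3 as well gave 7 calls of 1936 genes (0.362% called), all higher at 18 months, 6 of them outside the gates and among those Arhgap42 and Itga1, from a single remaining 3-month library with 5 nuclei, which the fit assumes to vary like the 18-month libraries. With both subgroups summed, 0 of 5148 genes were called (0% called, with 142 at an unadjusted p under 0.05), whereas DESeq2 made 12 calls (0.233% called). There edgeR made 26 calls with the release term (0.505% called), 15 with the replicate block (0.291% called) and 76 with release 7.2.0 alone (1.31% called), of which 22, 11 and 68 lay outside the gates. For the difference in age effect between mural and endothelial nuclei, 0 of 3182 genes were called by the interaction test of edgeR over 5 libraries (0% called, with 51 at an unadjusted p under 0.05, and no DESeq2 fit was made).

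The gene called by DESeq2 in endothelial nuclei was Adgrl4. Its log2 change was 3.32 ± 0.69 (SE) in the edgeR fit, with an unadjusted p of 6.7e-04 and an adjusted p of 1.0, and 3.41 ± 0.74 by DESeq2 with an adjusted p of 0.0178. With the software release as an added term, edgeR gave 3.34 ± 0.43 and an adjusted p of 5.4e-04, and with the replicate block 3.20 ± 0.48 and an adjusted p of 0.0034, so the call depended on the tool and the model. Adgrl4 was also counted in the nuclei that passed neither gate. There it stood at 0.00535, 0.0299 and 0.0723 UMIs per 10000 in the 18-month libraries, against 0.00476, 0.00360 and 0.00577 in the 3-month libraries. Replicate 1 of 18 months thus lay among the 3-month libraries, and replicates 2 and 3 above them. The age effect of Adgrl4 in all members minus that in all other nuclei was 0.68 ± 0.73 on the log2 scale (SE) and did not pass the interaction test of edgeR (adjusted p = 0.968). With single-class nuclei alone that difference was -0.87 ± 0.84 (adjusted p = 1).

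The 12 genes DESeq2 called with both subgroups summed were all higher at 18 months. Of these, 4 were mural gate genes, whose calls are not read as tests, and 8 lay outside the gates, among them Dlc1, Arhgap42, Adgrl4, Igfbp7 and Stard13. In the edgeR fit of the same sums, Dlc1 had a log2 change of 2.03 ± 0.30 (SE, adjusted p = 0.132). Arhgap42, another GTPase-activating protein, had 2.52 ± 0.47 (adjusted p = 0.288). With the release term both genes passed the edgeR test, Dlc1 with an adjusted p of 3.9e-04 and Arhgap42 with a log2 change of 2.45 ± 0.40 (adjusted p = 0.00277). In mural nuclei alone, without that term, they were 0.71 ± 1.11 for Dlc1 and 1.51 ± 1.01 for Arhgap42, with an adjusted p of 0.998 for each. Beside these values stand the numbers of mural nuclei, 18, 34 and 16 at 18 months, against 4, 5 and 8 at 3 months, and the shares of UMIs from mixed nuclei, 55.6% to 92.1% at 18 months, against 94.2% to 96.8% at 3 months. Their part in the summed values was not tested.

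In the edgeR fits of these sums over all usable libraries with no added term, 0 members of the gene lists were called. With the release term, 7 list members outside the gates were called in both subgroups summed, Flt1, Mgp and Itga1 among them. They were part of 26 calls over all 5148 genes (0.505% called). With the replicate block 4 list members were called, of 15 calls over all genes (0.291% called). The lists held 334 distinct genes, not all of which were tested. With both subgroups summed, 7 of 28 endothelial identity genes were tested, all with a positive log2 change (median 0.95), against a median of -0.055 over all 5148 genes. Of the 31 barrier genes, 16 were tested, 10 with a positive and 6 with a negative value (median 0.13). Of 28 basement membrane and matrix genes, 7 were tested, 6 with a positive value (median 1.17). All 15 photoreceptor genes, which other nuclei show too, had negative values (median -0.31). With single-class nuclei alone, 108 genes could be tested and 0 were called by edgeR (7 at an unadjusted p under 0.05; no DESeq2 fit was made). There the 3 endothelial identity genes tested (Flt1, Mecom and Ptprm) had negative values (median -0.57), and the 3 mural identity genes tested had positive ones (median 1.07), against a median of -0.117 over all 108. The photoreceptor list in single-class endothelial nuclei stood at 287, 188 and 189 per 10000 in the 18-month libraries, against 344, 632 and 320 in the 3-month libraries, without overlap, and its part in the age values was not tested.

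Genes whose age effect differed between the members and all other nuclei numbered 45 of 17020 tested (0.264% called; edgeR interaction test with a term per library). One was a gate gene and is not read. Of the other 44, the difference was positive for 40 and negative for 4. Ednra had a log2 difference of 4.34 ± 0.92 (SE, adjusted p = 0.00208). Il34, a ligand of the microglial receptor Csf1r, had a difference of 3.36 ± 0.65 (adjusted p = 2.9e-04), and Nostrin, which binds endothelial nitric oxide synthase, of 3.52 ± 0.88 (adjusted p = 0.0329). Dlc1, Cald1 and Ebf1, with differences of 2.19, 1.27 and 1.28, were also called. The make-up of the members' sums differed between the ages. Single-class mural nuclei gave 12823, 35050 and 20527 of the 188910, 308177 and 59998 member UMIs in the 18-month libraries. In the 3-month libraries they gave 5959, 2986 and 7191 of 243176, 191334 and 518015. The part of this make-up in the differences was not tested, so they are not read as changes within vascular cells. In single-class nuclei of either subgroup, 29 of the 40 genes stood at more than 3 times their level in all other nuclei, and 0 of the 4 genes with a negative difference did. No share over all 17020 tested genes stands beside these counts, so they only describe the called genes. Those 4 included Ptprz1 (-1.52 ± 0.35, adjusted p = 0.00901), Cacna1f (-1.31 ± 0.34, adjusted p = 0.04) and Tmem132d (-1.30 ± 0.32, adjusted p = 0.0262), which in all other nuclei stood at 0.744, 0.862 and 1.57 per 10000 and in single-class mural nuclei at 0.237, 0.118 and 0.710.

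By list, 35 of the 45 called genes were in no list or gate. Against 0.264% called over all genes, 3 of 20 mural identity genes tested were called (Dlc1 and Ebf1 among them), 1 of 16 contractile genes (Cald1), 1 of 26 vasoactive genes (Ednra) and 1 of 7 ganglion cell markers (Rbpms), all positive. The 0.264% is not a like background for these lists. Many of the 17020 genes passed the count filter through the other nuclei, whereas 5148 genes passed it in the sums of members alone. Of the 5 red cell markers, 3 were called (Hba-a1, Hba-a2 and Hbb-bs), also positive. Of 26 endothelial identity genes and 31 barrier genes, 0 were called by edgeR, with 4 and 6 at an unadjusted p under 0.05 and no DESeq2 fit. Mural and endothelial lists were not tested against each other. The median difference was 1.42 for the mural identity list, 0.58 for the endothelial identity list, 0.24 for the barrier list and 4.34 for the red cell markers, against -0.037 over all 17020 genes.

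No gene was called when mixed nuclei were left out. With the 132 single-class nuclei, 0 of 16215 genes were called by edgeR (377 at an unadjusted p under 0.05; no DESeq2 fit was made). A gene could pass the count filter of this fit through the other nuclei alone. In the sums of single-class nuclei by themselves, 108 genes passed the filter. Most of the 16215 genes thus had few counts in members, and the 0 cannot show that no gene differed. The value of Ednra in the single-class fit was 2.67. Thinning every member to 500 UMIs, so that deep nuclei weighed no more than shallow ones, gave 1 call, Hbb-bs. With 1 library left out, the lowest count was 7 (18-month replicate 2 left out) and the highest 86 (3-month replicate 1 left out). The count was 84 when 18-month replicate 1 was dropped, 21 for 3-month replicate 2 and 18 for 3-month replicate 3. Hbb-bs had a log2 difference of 4.43 ± 0.49 (adjusted p = 2.4e-15). Its level in all other nuclei was 0.105, 0.556 and 0.153 per 10000 in the 18-month libraries, against 0.222, 4.0 and 2.35 in the 3-month libraries, and near-identical globin copies make its count uncertain.

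**Figure D5:**
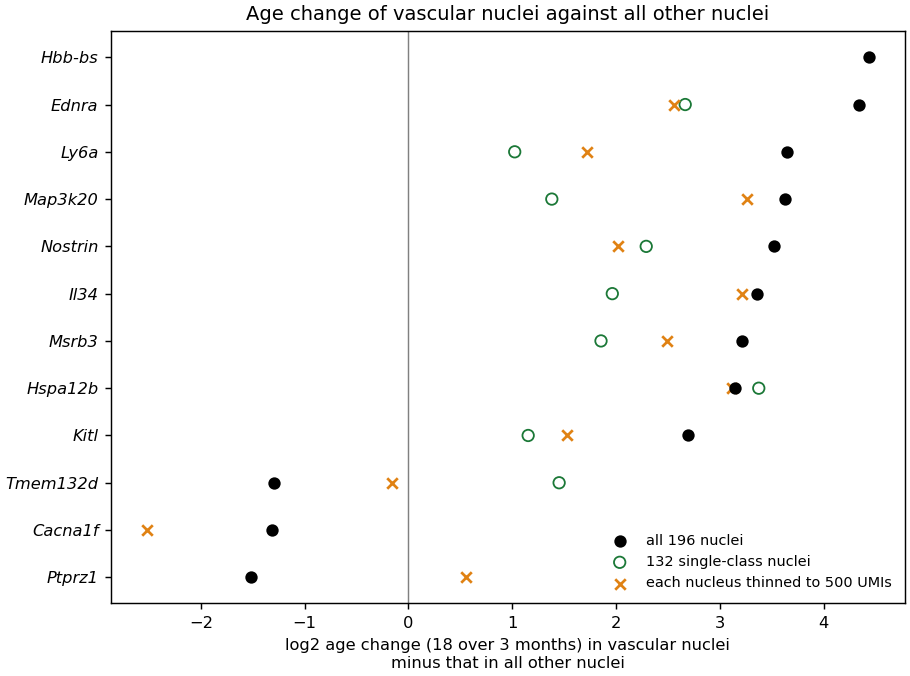
Log2 age change (18 over 3 months) in vascular nuclei minus that in all other nuclei for 12 called genes, with all 196 members (filled circles), the 132 single-class nuclei (open circles) and members thinned to 500 UMIs each (crosses), where fits with 0 UMIs at an age are not drawn. The value of Ednra is 4.34 with all members and 2.67 with single-class nuclei.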

How the data were processed

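Nuclei of retina were profiled with the 10x Chromium 3′ v3.1 chemistry, per the labels' protocols. The deposited matrices give raw UMI counts for every gene in each barcode, made by the authors with Cell Ranger 7.1.0 (replicate 1 of each age) or 7.2.0 (the others), per the file headers. The submitters' processing notes name mm10 and Seurat. Whether doublets were removed is not given in the sources used here, and no doublet caller was run: members with 3 or more markers of another class were sorted out instead. Barcodes with at least 300 genes and at most 5% mitochondrial UMIs were kept.

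Counts were summed per library over the gated nuclei and tested with edgeR 4.0.16 (TMM, filterByExpr, quasi-likelihood, R 4.3.3), with DESeq2 1.42.0 as an alternative. Shares and ratios were tested by two-sided exact permutation over libraries with scipy 1.17.1. Pooled levels are UMIs per 10000 UMIs of the same nuclei. Intervals and limits are 95% and cover counting error only. The differences between age effects were fitted on 12 sums with a term per library. Fits were tested on simulated data first, where the fits of differences between age effects recovered only a minority of the changed genes, so a count of 0 from them does not show that no gene differed. Symbols are those of the files, and gene positions come from GENCODE M21, which held 32158 of the 32285 identifiers. The alternatives were other gate thresholds (2 or 4 markers), no mitochondrial limit, leaving out mixed members, thinning, no TMM, another filter on low counts, a term for the release, the replicate number as a block and leaving out each library.

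The members and lists were chosen with earlier results of these data known, and thinning members to 500 UMIs and the ranking of single-class nuclei were chosen after seeing the data. Genes named by size of change were up to 12 per direction past an adjusted p of 0.05 with at least 20 CPM. Other named genes were the gate genes, called list members, the 4 list members with the most UMIs and the 15 genes that led each ranking. The remaining list members and the genes of the non-overlapping sets were chosen after their values were seen. Some genes are not reported here.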

Additional observations from a re-analysis of the deposited data

Results flagged for a closer look

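The age effect differed between the 196 vascular nuclei and all other nuclei for 45 genes by the edgeR interaction test, 44 of them outside the gates, and with single-class nuclei alone for 0. In the single-class fit most genes had few counts in members. The make-up of the members' summed counts differed between the ages, as given above, and its part in these values was not tested. The named genes with a higher effect in vascular nuclei had these log2 differences with all members: Hbb-bs 4.43, Ednra 4.34, Ly6a 3.64, Map3k20 3.63, Nostrin 3.52, Il34 3.36, Msrb3 3.21, Hspa12b 3.15 and Kitl 2.69. Those with a lower effect were Ptprz1 at -1.52, Cacna1f at -1.31 and Tmem132d at -1.30. Over 11 alternatives the highest adjusted p of each of these genes was at least 0.963.

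A vascular signal was also present among barcodes that the mitochondrial limit removed. Of these, 24 passed a gate, 4 in 18-month libraries (3 mural and 1 endothelial, all in replicate 1) and 20 in 3-month libraries. In 3-month replicate 1 they were 5 mural, 6 endothelial and 3 that passed both gates. Without that limit the share of endothelial nuclei was 0.00803 percentage points higher at 18 months than at 3 months, and the ratio of mural to endothelial nuclei overlapped between the ages (exact permutation p = 0.3).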

How the results depend on the processing

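Beside the limits above, 3 libraries per age, few nuclei and low depth bound what these data can show. The difference in mural share and in the mural to endothelial ratio kept its sign under every alternative run, and without 1 library each they lay between 0.0709 and 0.168 percentage points and between 0.830 and 1.68. The mural share difference of 0.119 percentage points fell to 0.0348 with at least 4 markers, 0.0465 after thinning to 1000 UMIs and 0.0643 with release 7.2.0 alone. The ratio difference of 1.16 was 0.183 with at least 2 markers and 2.76 without mixed members. With at least 4 markers it was again 1.16, but the ages overlapped (exact permutation p = 0.9). The ratios were then 4.5, 0.452 and 0.333 in the 18-month libraries, against 0.4, 0.6 and 0.8 in the 3-month libraries. The value of 4.5 came from 9 mural and 2 endothelial nuclei of 18-month replicate 1. The difference in endothelial share (18 minus 3 months) was -0.0111 percentage points and turned positive with at least 2 markers (0.165), at least 4 markers (0.000748), no mitochondrial limit (0.00803), no mixed members (0.00277), nuclei thinned to 1000 UMIs (0.0621) and release 7.2.0 alone (0.0118). Without 1 library each it ranged from -0.0971 to 0.0580.

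In endothelial nuclei 1 gene, Adgrl4, was called by DESeq2, with a release term and with the replicate block (1 call each), and 140 genes with release 7.2.0 alone (89 higher and 51 lower). Leaving out 1 library each gave 0 to 1 calls. With both subgroups summed the calls were 12 by DESeq2, 26 with a release term, 15 with the replicate block and 76 with release 7.2.0 alone, and 0 to 1 without 1 library each. Mural calls were 0 in every fit with at least 2 libraries per age, and calls of fits with 1 library left at 3 months are not read. For mural minus endothelial nuclei, thinning to 500 UMIs gave 1 call and leaving out any 1 library of 18 months gave 0. For vascular minus other nuclei the calls were 10 with at least 4 markers, 0 without mixed members, 1 after thinning and 7 to 86 without 1 library each. Ptprz1 was 11.4 without mixed members and 0.56 after thinning, Cacna1f 9.69 and Tmem132d 1.45 without mixed members. Ptprz1 and Cacna1f had 0 UMIs at an age in single-class nuclei, so these values are no measure of size. The cause was not tested for the other changes.

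Omitting TMM factors shifted the median log2 change of all genes in mural nuclei by 0.119. The replicate block gave an exact permutation p of 0.5, 1 and 0.25 for mural share, endothelial share and their ratio. Replicate numbers were not taken to pair libraries, since the labels state no pairing. Same-numbered sums of members correlated at 0.581, 0.38 and 0.083 across genes. In all other nuclei they correlated at 0.737, 0.652 and 0.259, each above 0.1, although 18-month replicate 3 correlated better with 3-month replicate 2 (0.401). Among members, 18-month replicate 2 correlated better with 3-month replicate 3 (0.505). Replicate 1 of each age also shares its software release. The 18-month replicate 1 correlated negatively with 3-month replicates 2 and 3, at -0.432 and -0.49 in members and -0.714 and -0.533 in all other nuclei. The main age fits within the members hold no term for the release or the replicate number. The blocked counts are therefore given beside the main ones. The mural, endothelial and mural minus endothelial fits could not be fitted with at least 4 markers or without mixed members, for want of libraries with 5 nuclei.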
